A study of Mus musculus with 6 samples.

Results

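The genes described here encode fibrillar collagens and proteins that sit with them in the interstitial matrix: periostin (Postn), the chains of collagen I, III and V (Col1a1, Col1a2, Col3a1, Col5a1 and Col5a2), fibronectin (Fn1), fibrillin-1 (Fbn1) and the small leucine-rich proteoglycans lumican (Lum) and decorin (Dcn). The 10 symbols were listed with the array results known, and the list was chosen by the signals of Postn and Col3a1, which were higher in Flk1 KO than in WT embryos. Every probe set that the platform annotation pairs with one of these symbols alone was taken, which gave 18 probe sets of 9 genes, out of 45101 probe sets and 18194 genes. Fbn1 had no probe set named for it in that annotation and was not analysed here. Of the 18 probe sets, 16 passed the filter on low values. The other 2, one each of Col1a2 and Dcn, lay below background in all 3 groups. Each of the 9 genes had at least 1 probe set that passed, and 7 genes had more than 1 probe set before the filter.

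RNA levels came from Affymetrix mouse arrays, 2 for each of 3 groups of ICR mouse material taken 8.5 days post coitum, when embryos had 3 to 4 somites and blood had not begun to circulate. The groups were cells positive for Flk1, the VEGF receptor that Kdr encodes and that marks endothelial cells and their precursors, then embryos lacking Flk1 (Flk1 KO), and embryos of the wild type (WT). Embryo samples were the embryo proper. Flk1+/GFP embryos are named in the design text, but no label ties the Flk1-positive cells to them, so any effect of that genotype cannot be told apart from that of cell selection. How the cells were selected, which allele the knockout carries, and whether replicate arrays stand for different embryos, litters or pools are not stated in the labels or the design text. The p-values given here thus rest on how far the arrays of a group differ, and part or all of that spread may be technical.

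The labels were checked with Kdr, whose signals were 3309 and 3328 in Flk1-positive cells, 29.5 and 63.8 in Flk1 KO embryos, and 544 and 546 in WT embryos. Across the probe sets tested, the arrays of a group correlated at 0.980 to 0.985, and Flk1 KO replicate 2 correlated as closely with the WT arrays (0.981 and 0.982) as with Flk1 KO replicate 1 (0.980). All 10 endothelial marker genes were higher in Flk1-positive cells (limma adjusted p below 0.05). Between 54.3% and 57.9% of the probe sets of an array lay above the background signal of 57.4, which was set from olfactory and vomeronasal receptor probe sets, and the number of arrays limits the precision. Differences were taken as log2(signal + 21.6), where dim genes appear to change less than they do, and folds come from the same scale. Probe sets differ in how well they bind, so signals are compared between samples and not between genes.

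Fibrillar collagens are made as procollagen chains that fold into a triple helix in the endoplasmic reticulum, are trimmed outside the cell and assemble into fibrils that lysyl oxidases cross-link. Collagen III and collagen V form mixed fibrils with collagen I, and collagen V, decorin and lumican set how fibrils start and how thick they grow. Fibronectin is laid down earlier in development, is bound by integrins, and is needed in mice for the heart and the first vessels to form. Periostin binds collagen and fibronectin and is known from the cushion mesenchyme of the heart, the periosteum and healing tissue.

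RefSeq promoter entries for GRCm38.p6 were found for 5 of the 10 genes, Postn (2 starts), Col1a2, Col3a1, Col5a1 and Fbn1. The 100 bases before the annotated start are shown for the collagen genes among them and for the downstream start of Postn. Which Postn start is used in these samples was not tested, and no link between the sequences and the Flk1 KO differences was tested. Capitals mark TATAAA, searched on both strands in the window from 40 to 16 bases before the start.
Postn, chr3:54361007-54361106, + strand: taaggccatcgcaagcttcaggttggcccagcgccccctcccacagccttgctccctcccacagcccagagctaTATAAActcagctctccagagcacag
Col3a1, chr1:45311438-45311537, + strand: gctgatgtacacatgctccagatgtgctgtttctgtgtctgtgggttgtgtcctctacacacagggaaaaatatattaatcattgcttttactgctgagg
Col1a2, chr6:4505518-4505617, + strand: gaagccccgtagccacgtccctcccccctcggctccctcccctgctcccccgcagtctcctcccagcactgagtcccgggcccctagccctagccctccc
Col5a1, chr2:27886325-27886424, + strand: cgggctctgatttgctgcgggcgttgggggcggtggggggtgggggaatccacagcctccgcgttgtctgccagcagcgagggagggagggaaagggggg
TATAAA was present in that window at the downstream Postn start alone, beginning at position -26 on the gene's strand, with -1 the last base before the start, and 2.48% of all 32851 promoter entries held it there on either strand. CCAAT, searched on both strands over 250 bases, was found among the members' entries in Col1a2 only, at position -109, outside the stretch shown, against 33.9% of all entries, and it did not overlap a TATAAA match. The GC share of the 250 bases was 52.0% for the downstream Postn start and 40.4% for the upstream one. It was 35.2% for Col3a1, 62.0% for Col1a2 and 76.4% for Col5a1. The median of all entries was 52.4%, with a 5th percentile of 34.8% and a 95th percentile of 73.6%, so that Col5a1 lay above the 95th and Col3a1 close to the 5th. A match is a description of these letters and not a site of binding.

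In Flk1 KO embryos, 7 of the 9 genes had both arrays above both WT arrays, namely Postn, Lum and all 5 collagen genes, while Fn1 and Dcn overlapped. Over all 15204 genes tested, 19.1% had both Flk1 KO arrays above both WT arrays and 18.1% had both below. Because this contrast chose the list, its values for these genes are a description without a test, and nothing is read from the count. The embryos are mixed tissue, in which a change in the number of cells of a type and a change in RNA per cell cannot be told apart.

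Periostin, the matricellular protein, had the largest Flk1 KO difference among the brightest probe sets of the 9 genes. Its signals were 754 and 1047 in Flk1 KO embryos, against 317 and 347 for WT, while the Flk1-positive cells had 277 and 258. The 3 groups did not overlap, with Flk1 KO embryos highest and Flk1-positive cells lowest. The Flk1 KO mean was 901 ± 207 and the WT mean 332 ± 21.1 (SD, n = 2 each), a log2 difference of 1.37, or 2.58-fold.

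Col3a1, which encodes the chain of collagen III, had the same order of groups. Its brightest probe set gave 1705 and 1287 in Flk1 KO embryos, against 530 and 624 in WT embryos, while the Flk1-positive cells had 495 and 455. The Flk1 KO arrays lay far above the rest, and the Flk1-positive arrays lay just below the WT arrays without overlap. Flk1 KO embryos exceeded WT embryos by 1.33 on the log2 scale, or 2.52-fold. A second, dimmer probe set gave 191 and 144 in Flk1 KO embryos and 42.8 and 58.6 in WT embryos, whose mean was below background, so that the difference was at least 2.37-fold. That probe set gave 60.5 and 39.1 in Flk1-positive cells, overlapping the WT arrays.

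The chains of collagen I, the main collagen of fibrils in later connective tissue, differed less. Col1a1 had signals of 570 and 382 in Flk1 KO embryos, against 331 and 262 in WT embryos, while the Flk1-positive cells had 273 and 299. Flk1 KO embryos were above both other groups, which overlapped each other, and the Flk1 KO arrays differed from one another by more than the lower of them differed from the higher WT array. Col1a2 had signals of 1033 and 851 in Flk1 KO embryos, against 700 and 729 in WT embryos, while the Flk1-positive cells had 727 and 636, again with only the Flk1 KO arrays standing apart. The log2 differences between Flk1 KO and WT embryos were 0.63 for Col1a1 and 0.38 for Col1a2. Their next probe sets gave 0.41 for Col1a1 and 0.61 for Col1a2, both with arrays that did not overlap, so which chain differed more depended on the probe set.

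Collagen V, a minor chain partner that starts collagen I fibrils, split between its chains. Col5a1 had signals of 750 and 912 in Flk1 KO embryos, against 479 and 585 in WT embryos, with a log2 difference of 0.62 between Flk1 KO and WT embryos. The Flk1-positive cells had 567 and 394, overlapping WT. The 2 other Col5a1 probe sets gave 0.02 and 0.14, and on both the Flk1 KO and WT arrays overlapped, so the order rested on the brightest one. Col5a2 was highest in Flk1-positive cells, at 1987 and 2374, against 1102 and 1239 in Flk1 KO embryos and 873 and 982 in WT embryos. No 2 of these groups overlapped, and Flk1 KO embryos exceeded WT embryos by 0.33 on the log2 scale. A dimmer Col5a2 probe set gave 427 and 474 in Flk1 KO embryos against 451 and 337 in WT embryos, which overlapped, with a difference of 0.20, so this order of the embryo groups also rested on the brightest probe set. In the RefSeq gene table (GRCm38.p6) Col3a1 and Col5a2 are next to each other among the coding genes of chromosome 1, yet the group with the highest signal was Flk1 KO embryos for the one and Flk1-positive cells for the other.

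Lumican and decorin are also neighbours in that table, on chromosome 10, and their signals differed in pattern. Lum had signals of 537 and 445 in Flk1 KO embryos, against 234 and 301 in WT embryos, while the Flk1-positive cells had 286 and 372. The Flk1 KO arrays were above the rest and the other groups overlapped, with a log2 difference of 0.83 between Flk1 KO and WT embryos. Dcn had signals of 137 and 107 in Flk1 KO embryos, against 148 and 96.3 in WT embryos, while the Flk1-positive cells had 9.49 and 12.5. The embryo groups overlapped, with a log2 difference of 0.02, and Flk1-positive cells were below background.

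Fibronectin was far above background in every group. Fn1 signals were 18890 and 19718 for Flk1-positive cells, against 6623 and 7594 in Flk1 KO embryos and 6740 and 7342 in WT embryos. The embryo groups overlapped, with a log2 difference of 0.01, and the cells lay far above both. On a dimmer Fn1 probe set Flk1 KO embryos, at 368 and 596, were below WT embryos, at 808 and 760 (log2 difference -0.71), and Flk1-positive cells had 1848 and 1818. The Fn1 probe sets therefore did not give the same order for the embryo groups, while both put the cells highest.

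**Figure D1:**
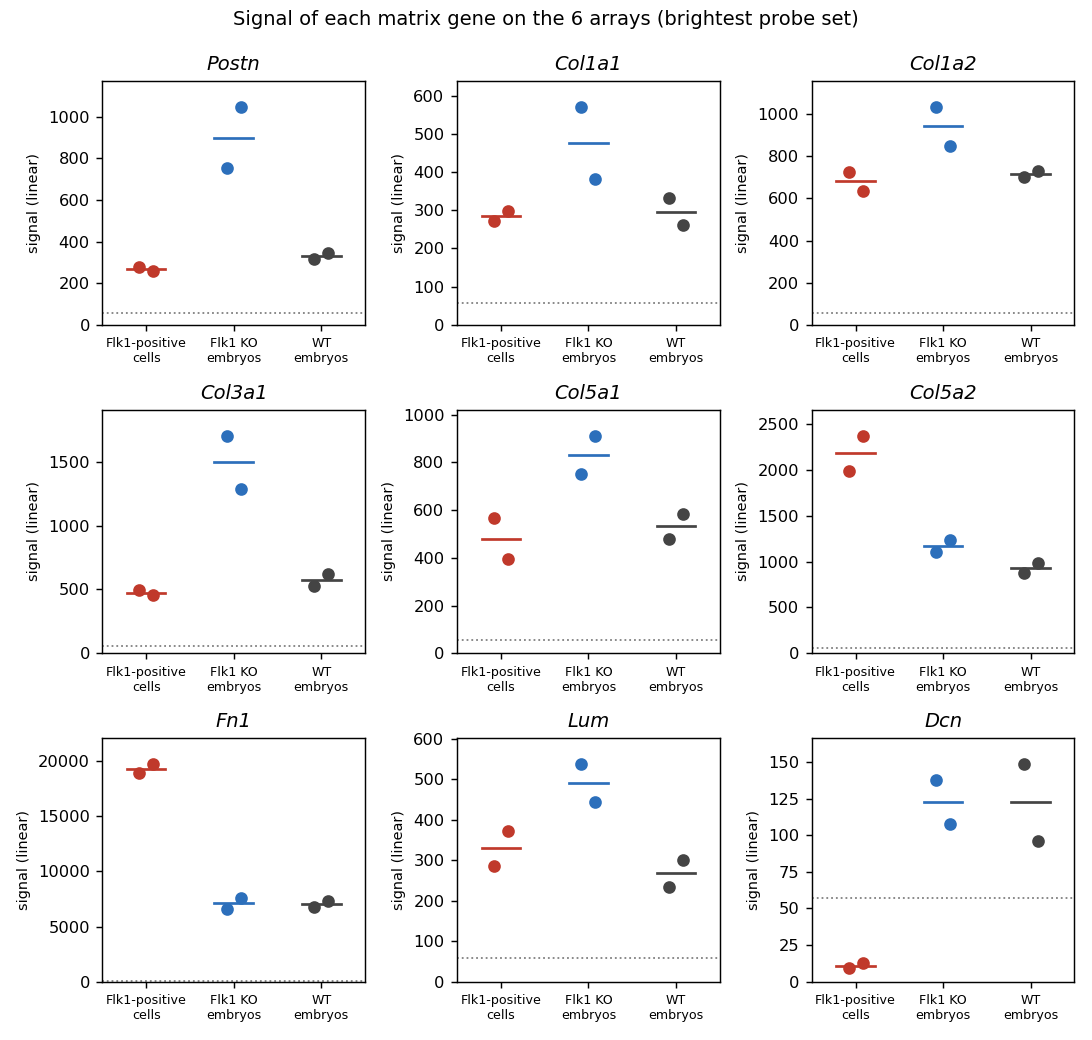
Signal (linear scale) of the brightest probe set of each of the 9 genes in Flk1-positive cells, Flk1 KO embryos and WT embryos, with 1 point per array, the group mean as a bar and the background signal of 57.4 as a dotted line. Postn, Lum and the 5 collagen genes have both Flk1 KO arrays above both WT arrays, Col5a2 and Fn1 are highest in Flk1-positive cells, and Dcn is below background there.

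**Figure D2:**
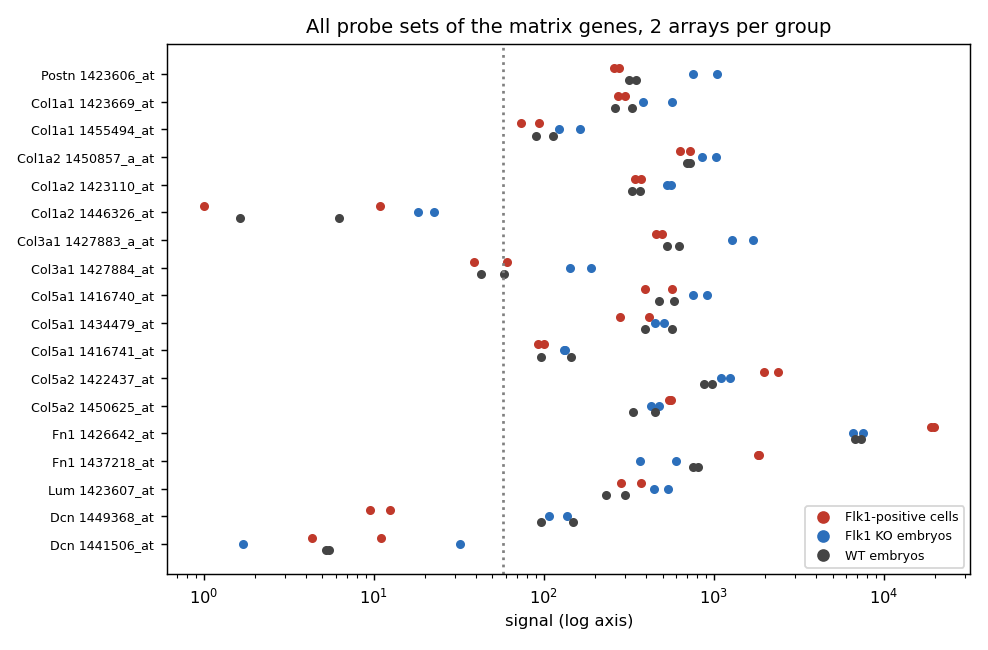
Signal (log axis) of all 18 probe sets of the 9 genes, with 2 arrays each in Flk1-positive cells, Flk1 KO embryos and WT embryos, and the background signal of 57.4 as a dotted line. Both Col3a1 probe sets separate Flk1 KO from WT embryos, while only 1 of 3 Col5a1 probe sets does, and the lowest Col1a2 and Dcn probe sets are below background.

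Over all 18 probe sets, 11 had both Flk1 KO arrays above both WT arrays, 1 had both below and 6 overlapped. The share over all probe sets is not given here. As this contrast chose the list, nothing is read from the count. Between the Flk1 KO arrays, 5 of the 9 genes were higher on replicate 1 and 4, among them Postn, on replicate 2. On leaving out any 1 Flk1 KO or WT array, the count of genes without overlap and higher in Flk1 KO embryos was 7 or 8. Leaving out an array cannot lower this count, so nothing is read from it.

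Markers of several other tissues differed in the same contrast. All 7 cardiomyocyte markers, sarcomere genes such as Myh6 and the atrial peptide gene Nppa, had both Flk1 KO arrays above both WT arrays, with a summed signal of 24869 to 37162 in Flk1 KO embryos against 18186 to 18831 in WT embryos. Of 8 yolk sac endoderm markers, 6 were above, with sums of 27264 to 28879 in Flk1 KO embryos and 19508 to 22085 in WT embryos. Of 5 smooth muscle markers, 3 were above, with sums of 7279 to 10366 in Flk1 KO embryos and 5798 to 5881 in WT embryos, and Myh11 was below background in all groups. Of 13 mesenchyme markers, 4 were above and 1 below, with sums of 12805 to 13602 in Flk1 KO embryos and 11800 to 12595 in WT embryos. Of 5 allantois markers, 3 were above and 0 below, with sums of 1637 to 1699 in Flk1 KO embryos and 1344 to 1464 in WT embryos. All 10 endothelial markers were below, with sums of 660 to 796 in Flk1 KO embryos and 3259 to 3497 in WT embryos. Cranial mesenchyme and neural crest markers, 7 on the array, had 1 above and 2 below. Their sums were 1671 to 1749 in Flk1 KO embryos and 1712 to 1942 in WT embryos. Parietal endoderm had 0 of 6 markers above and 2 below. Trophoblast had 1 of 6 above and 3 below, with sums of 386 to 531 in Flk1 KO embryos and 484 to 505 in WT embryos. Blood had 2 of 6 above and 1 below, but its sums were lower in Flk1 KO embryos, at 167 to 286, than in WT embryos, at 405 to 709. Most of these markers lay below background in Flk1 KO embryos, where 1 of 6 in each list was above it. In WT embryos 2 trophoblast and 3 blood markers were above it. Among all genes tested, 19.1% were above and 18.1% below. The part of these tissues in the collagen and Postn signals was not tested.

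Maternal decidua and uterus, which carry fibrillar collagens too, were looked at in the same way. Of 8 markers, 1 had both Flk1 KO arrays above both WT arrays and 1, the decidual prolactin Prl8a2, had both below, at 33.4 and 16.7 in Flk1 KO embryos against 193 and 77.2 in WT embryos. The summed signal was 1165 to 1188 in Flk1 KO embryos and 1004 to 1424 in WT embryos, so the groups overlapped. Prl3c1 and Esr1 were below background in all groups.

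**Figure D3:**
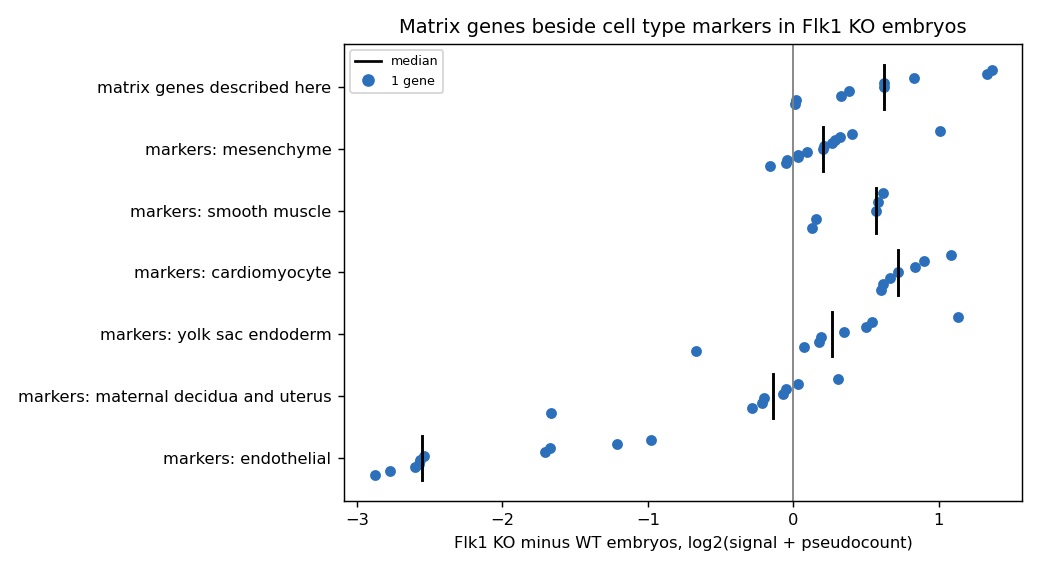
Flk1 KO minus WT difference on the log2(signal + pseudocount) scale for the 9 matrix genes and for the marker genes of 6 cell types or tissues, with 1 point per gene and the median as a bar. The matrix genes, whose list was chosen on this contrast, have a median of 0.62, against 0.001 for all genes tested. Medians of the markers are 0.72 for cardiomyocyte, 0.57 for smooth muscle, 0.27 for yolk sac endoderm and 0.21 for mesenchyme. They are -0.14 for maternal decidua and uterus and -2.55 for endothelial markers.

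The series title names endothelial cell-enriched genes. The contrast of Flk1-positive cells with WT embryos addresses which matrix genes had higher signals in these cells than in the embryo proper. Whether the cells came only from the embryo proper was not tested. This contrast did not choose the genes, though it shares the WT arrays with the one that did. Of the 9 genes, Fn1 and Col5a2 (2 genes) were higher in the cells, Dcn (1 gene) was lower and 6 had no call, with limma across all probe sets tested and an adjusted p below 0.05. Over all 15204 genes tested, 12.2% were higher and 17.5% lower. The median difference of the 9 genes was -0.07 and that of all genes -0.08 on the log2 scale.

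Fn1 was 2.74-fold higher in Flk1-positive cells, with a log2 difference of 1.45 ± 0.14 (SE, limma adjusted p = 0.00195). Its dimmer probe set was higher as well (1.20 ± 0.24, limma adjusted p = 0.0186). Col5a2 was 2.32-fold higher (1.21 ± 0.16, limma adjusted p = 0.00519), while its dimmer probe set, at 564 and 543 in Flk1-positive cells against 451 and 337 in WT embryos, differed by 0.48 ± 0.18 and did not pass (limma adjusted p = 0.108). Dcn was at least 1.79-fold lower in Flk1-positive cells, its measured difference being -2.12 ± 0.22 (limma adjusted p = 0.00261). Over the alternatives tried, the adjusted p of the brightest probe sets lay between 9.79e-07 and 0.0209 for Fn1, between 3.3e-05 and 0.0408 for Col5a2 and between 0.000234 and 0.0176 for Dcn.

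The chains of collagen I and III, Col5a1, Postn and Lum did not pass the test in Flk1-positive cells. The difference from WT embryos was -0.04 for Col1a1 (95% interval -0.62 to 0.54), -0.07 for Col1a2 (-0.46 to 0.33) and -0.27 for Col3a1 (-0.74 to 0.20). For Col5a1 it was -0.15 (-0.72 to 0.41), for Postn -0.29 (-0.77 to 0.18) and for Lum 0.28 (-0.24 to 0.80). Limma adjusted p-values of these 6 genes ran between 0.319 (Postn) and 0.916 (Col1a1). A p that misses the threshold does not show that the groups were alike, and the intervals give the differences that the 2 arrays per group leave possible. Mesenchyme markers stood differently in the same cells, with 10 of 13 lower and 1 higher, against 17.5% lower and 12.2% higher over all genes. Among the lower ones was Pdgfra, at 341 and 504 in Flk1-positive cells against 3648 and 3120 in WT embryos. Of the 9 matrix genes, Dcn was the 1 called lower, Postn and Col3a1 had both Flk1-positive arrays below both WT arrays without a call, and the difference between the lists was not tested.

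Some markers of cell types other than endothelium also stood higher in Flk1-positive cells, where 12.2% of all genes were higher and 17.5% lower. Of 6 parietal endoderm markers, 4 were higher and 1 lower, with summed signals of 32491 to 33653 in Flk1-positive cells against 11869 to 12042 in WT embryos. Of 6 blood markers, 5 were higher, with sums of 38189 to 40162 in Flk1-positive cells and 405 to 709 in WT embryos. Of 5 allantois markers, 2 were higher and 2 lower, with a median difference of 0.18. Their sums were 2285 to 2349 in Flk1-positive cells and 1344 to 1464 in WT embryos, and Tbx4 was higher by 2.60 on the log2 scale. Of 6 trophoblast markers, 1 was higher, and the median difference was -0.26. Their sums were 4588 to 4644 in Flk1-positive cells and 484 to 505 in WT embryos. Only 1 of the 6 lay above background in Flk1-positive cells, so the sums there came mostly from 1 gene. Tpbpa, Ascl2, Rhox6 and Ctsq were below background in all groups. Parietal endoderm is known to make fibronectin and Sparc, and Sparc is on both that list and the collagen processing list. All 10 endothelial markers were higher in the same cells, so which cells carried the Fn1 and Sparc signals cannot be told apart. The part of any of these cell types in the Fn1, Sparc and Col5a2 signals was not tested.

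**Figure D4:**
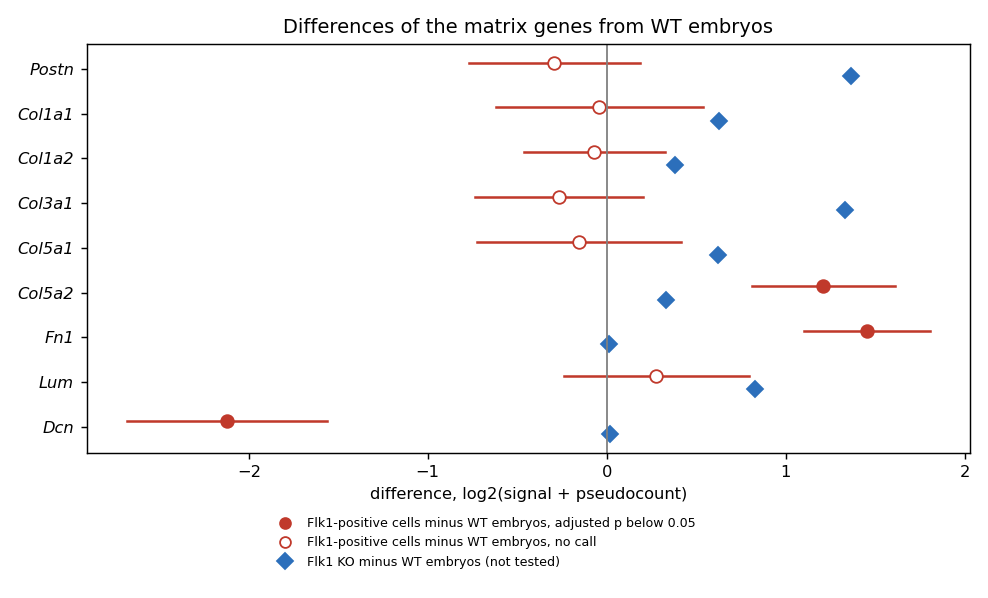
Difference from WT embryos on the log2(signal + pseudocount) scale for the 9 genes, as circles with 95% intervals for Flk1-positive cells (filled where the limma adjusted p was below 0.05) and as diamonds, with no test, for Flk1 KO embryos. Fn1 and Col5a2 lie to the right and Dcn to the left in Flk1-positive cells, while Postn (1.37) and Col3a1 (1.33) lie farthest to the right in Flk1 KO embryos.

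Other genes of the fibrillar matrix and its processing were taken from lists of 96 genes, of which 89 had a probe set named for them and 81 were tested. In Flk1-positive cells 12.2% of all genes tested were higher and 17.5% lower. Of the 81 genes, 26 were higher there, 20 were lower and 35 had no call. Their median difference was 0.20, against -0.08 for all genes. The count of higher genes was 17 without Flk1-positive replicate 1 and 16 without WT replicate 1 or without WT replicate 2. Between Flk1 KO and WT embryos none of the 81 passed the limma test, and at an unadjusted p under 0.05 there were 5 higher (Col12a1, Fbln1, Mfap2, Tnc and Vcan) and 3 lower (Ccn1, Col14a1 and Hapln1). At that unadjusted threshold 2.66% of all genes tested were higher and 3.65% lower, so the lower genes were near the overall share. These counts were unstable, with 14 higher and 1 lower under median centring, and 2 higher and 3 lower in a fit of the Flk1 KO and WT arrays alone. The unadjusted counts over all probe sets moved too. They went from 867 higher and 2026 lower to 1664 and 1216 under median centring, and to 812 and 1923 in the fit of these arrays alone. By the adjusted limma test 0% of all genes were higher and 0.132% lower in that comparison. Over all probe sets this was 23 called lower, which became 0 on leaving out any 1 of the 6 arrays. An intensity trend with a robust prior called 1 of the 81, Hapln1, lower.

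Among fibrillar and associated collagens, 1 of 13 genes was higher in Flk1-positive cells and 4 were lower. Col14a1, a collagen that binds the surface of fibrils, rose to 704 and 782 in Flk1-positive cells, against 96.2 and 101 in WT embryos (log2 difference 2.67 ± 0.14). Col2a1, the chain of cartilage collagen II, fell to 123 and 94.6 in Flk1-positive cells, against 986 and 1024 in WT embryos (-2.99 ± 0.20). Col9a1, a chain of collagen IX that sits on those fibrils, fell by 1.59 ± 0.14. Col12a1, a partner of collagen I fibrils, had 129 and 110 in Flk1 KO embryos, against 62.7 and 73.4 in WT embryos, a difference of 0.65 without a call. Col2a1 differed by 0.35 and Col14a1 by -0.43 in the same comparison.

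Of 23 genes for collagen processing and folding, 10 were higher in Flk1-positive cells and 4 lower. On leaving out either Flk1-positive array or either WT array the count of higher genes was 6. Sparc, a collagen-binding glycoprotein that parietal endoderm also makes, rose by 2.21 ± 0.16, and Pcolce, which speeds the trimming of procollagen, by 1.30 ± 0.19. Its relative Pcolce2 fell by 1.57 ± 0.17 and the prolyl hydroxylase gene P3h2 by 1.67 ± 0.17. No gene of this list was called between Flk1 KO and WT embryos: the collagen glycosyltransferase gene Colgalt1 differed by 0.36, P3h2 by 0.34 and Sparc by -0.25.

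Of the other small leucine-rich proteoglycans, 5 of 9 were tested. Biglycan (Bgn), which is closely related to decorin, rose to 1291 and 1330 in Flk1-positive cells, against 313 and 286 in WT embryos (2.05 ± 0.20), whereas Dcn fell. The other 4 tested had no call. Its signals of 280 and 191 in Flk1 KO embryos were below both WT arrays (-0.34, no call).

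In the elastic fibre list, 1 of 12 genes was higher in Flk1-positive cells and 3 were lower. Emilin1, which is found at the surface of elastic fibres, rose by 2.64 ± 0.12. Efemp1, a fibulin, was at least 2.02-fold lower and the microfibril-associated gene Mfap4 at least 1.03-fold lower. Between Flk1 KO and WT embryos Mfap4 differed by 0.59 and Mfap2 by 0.41, and Mfap5, at least 1.07-fold higher in WT embryos, lay near background. None of these was called.

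Matrix glycoproteins and receptors went both ways in Flk1-positive cells. Of 14 glycoprotein genes, 6 were higher and 4 lower, and the 6 became 3 on leaving out either Flk1-positive array or either WT array. Hapln1, which links hyaluronan to versican, rose by 2.48 ± 0.16 and Ecm1 by 1.74 ± 0.16. Vitronectin (Vtn) and Fras1, a gene of epithelial basement membranes, were lower, Vtn by at least 2.34-fold and Fras1 by at least 3.62-fold. In Flk1 KO embryos Tnc (tenascin C) differed by 0.47, the versican gene Vcan by 0.40 and Hapln1 by -0.90. Of 14 receptor genes, 7 were higher and 5 lower, and the 7 became 4 without WT replicate 1 or without WT replicate 2. The 5 lower became 3 without Flk1-positive replicate 2, WT replicate 1 or WT replicate 2. Itgb3 and Itga1, integrin subunits for vitronectin and collagen, were at least 3.29-fold and 6.50-fold higher. The collagen receptor Ddr1 fell by 4.36 ± 0.51 and the syndecan gene Sdc4 by 1.66 ± 0.20. Flk1 KO minus WT differences were 0.32 for Itgb5, 0.16 for Itgb1 and -0.38 for Cd44, a hyaluronan receptor, with no call. Limma adjusted p-values of the 19 genes named from these lists as higher or lower in Flk1-positive cells lay between 0.000456 and 0.00928.

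**Figure D5:**
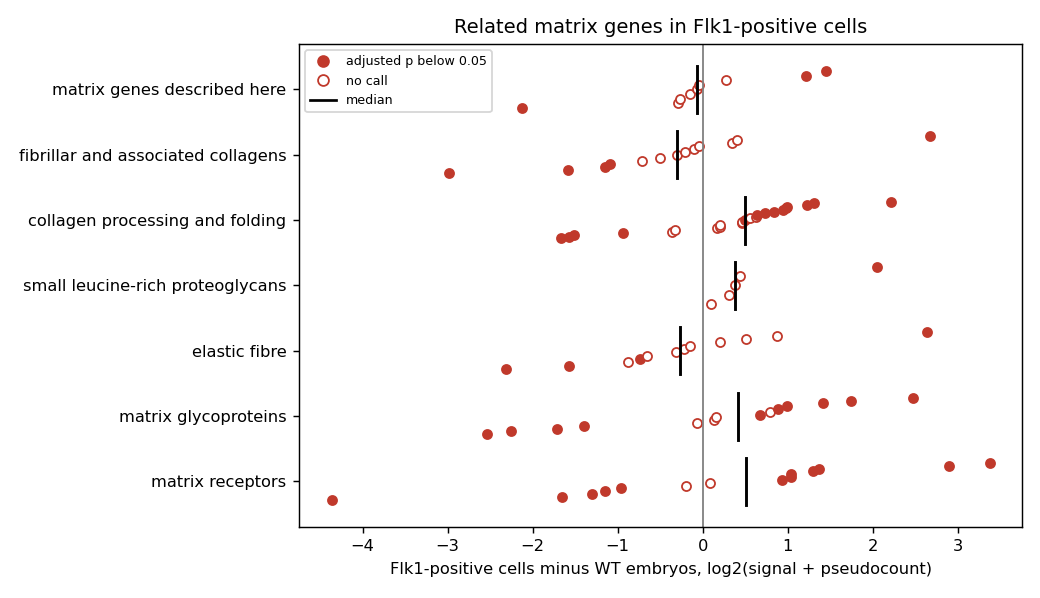
Flk1-positive cells minus WT embryos on the log2(signal + pseudocount) scale for the 9 matrix genes and for 6 lists of related genes, with 1 point per tested gene (filled where the limma adjusted p was below 0.05) and the median as a bar. Calls run in both directions in every list with more than 1 call, and 10 of 23 genes of collagen processing and folding are called higher.

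The genes whose 6 array values were most like those of Postn and Col3a1 were sought among 3749 genes with a range of at least 1 on the log2 scale and a mean above background. Nearest to Postn were Afp (Pearson r = 0.973 over the 6 arrays), which encodes alpha-fetoprotein, Rgs5 (0.972), Uggt2 (0.965), Ndrg2 (0.957) and Fndc5 (0.956). Afp had 8035 and 9851 in Flk1 KO embryos, against 3648 and 4477 in WT embryos, while the Flk1-positive cells had 2508 and 2557. Nearest to Col3a1 were Ndrg2 (0.991), Lbh (0.983), the receptor gene Ret (0.976), Hs1bp3 (0.962) and the apolipoprotein gene Apoa2 (0.958). Ndrg2 had 185 and 161 in Flk1 KO embryos, against 54.7 and 71.0 in WT embryos, while the Flk1-positive cells had 49.3 and 55.0. These values rest on 6 arrays in 3 groups and describe likeness of pattern only. Among the matrix genes themselves, r to Col3a1 was 0.958 for Col1a2, 0.940 for Postn, 0.878 for Col1a1 and 0.865 for Col5a1. For Lum it was 0.828 and for Dcn 0.610, and it was below 0 for Col5a2 (-0.40) and Fn1 (-0.62). Postn and Col3a1 chose the list by their higher signals in Flk1 KO embryos. A high r between them follows in part from that choice, and nothing is read from it. The minimum range of 1 was not required of the matrix genes, and Col1a2 fell short of it. Their r values are therefore not compared with those of the nearest genes.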

How the data were processed

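Per the labels' protocols, RNeasy Micro Kit RNA was biotin-labelled for Affymetrix GeneChips, and the design text names GeneSpring. The deposited values are linear probe-set intensity for 45101 probe sets, with a 2% trimmed mean of 500 on all 6 arrays and a floor of 1, by a program not named in the labels or file headers. That scale was kept, as the medians of the arrays spanned 0.147 in log2 units. The platform annotation gave 34958 probe sets 1 symbol, 932 several and 9211 none, and 34754 symbols were found by gene ID in a RefSeq table, with 0 changed.

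Signals were transformed as log2(signal + 21.6), the 25th percentile of all values. The 64 control probe sets and those with a mean signal under that percentile were left out, and 34621 were tested with limma 3.58.1 in R 4.3.3 (group as the only term, all 6 arrays, two-sided, Benjamini-Hochberg, threshold 0.05). A gene was represented by its brightest probe set. Background was taken from 80 probe sets of olfactory and vomeronasal receptors, as their 95th percentile. Where the dimmer mean lay below it, the fold is a bound on the log2 scale. Figures were drawn with matplotlib 3.10.9. The procedure was tested on simulated data.

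Genes named from the related lists were, per list, up to 2 rising and 2 falling calls by size in Flk1-positive cells and up to 2 positive and 1 negative Flk1 KO differences without overlap, each with a brighter mean above background, and the 5 genes most correlated with Postn and with Col3a1. The members and lists were chosen with earlier results of these data known. Other pseudocounts, filters, normalizations, variance priors, sample sets, a replicate block, the median over probe sets and leaving out each array were tried.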

Additional observations from a re-analysis of the deposited data

How the results depend on the processing

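Every alternative tried kept the calls of the matrix genes in Flk1-positive cells: 2 higher and 1 lower. Other counts moved. Leaving out 1 array gave 2091 to 3978 probe sets higher in Flk1-positive cells (3880 in the fit on all arrays) and 2144 to 4781 lower (4794), and 16 to 27 related matrix genes higher (26). Taking each gene as the median of its probe sets gave 2423 higher and 2927 lower, with fewer rows tested by construction. Between Flk1 KO and WT embryos, an intensity trend with a robust prior called 1 related matrix gene, against 0, and the cause was not tested. Over all probe sets that comparison gave 0 to 13 higher and 0 to 121 lower across the alternatives, against 0 and 23. The median over probe sets brought the Flk1 KO difference of Col5a1 to 0.02 and of Fn1 to -0.35, because their probe sets differ. Of the related genes named as called in Flk1-positive cells, none of the 19 lost its call under an alternative in which it was tested. Arrays of the same number did not deviate together (correlations of 0.0049 to 0.0267 between groups), and a replicate block gave 3434 probe sets higher and 4147 lower in Flk1-positive cells, with the same 2 and 1 matrix genes called. The number of arrays and the signal over background limit the dim probe sets of Col3a1, Col1a2 and Dcn.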
